A study of Homo sapiens with 8 samples.

Results

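Wnt signalling controls how much β-catenin a cell keeps. Without a Wnt signal, a destruction complex built on APC and AXIN1 holds β-catenin, casein kinase 1 alpha (CSNK1A1) adds a priming phosphate, GSK3A or GSK3B adds further phosphates, and the F-box protein BTRC passes the protein to a ubiquitin ligase. A Wnt ligand bound to a Frizzled receptor and LRP5 or LRP6 stops the complex through the Dishevelled proteins, and β-catenin then joins TCF/LEF factors on DNA and raises target genes, several of which restrain the pathway in turn. The pathway maintains the stem cells of the intestinal crypt and is active in most colorectal cancers.

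The RNA of 44 genes of this pathway was examined in Hct116 cells, an established human colorectal carcinoma line, treated for 16 h with lenalidomide at 30 μM, or with its solvent DMSO as the control. Lenalidomide binds the ubiquitin ligase subunit CRBN and directs CSNK1A1 to degradation, and the site that CSNK1A1 phosphorylates in β-catenin is mutated in one allele of Hct116 cells. The rule selected genes by symbol. All 44 were found among the 23459 genes of the count table, 24 of them components of the pathway and 20 known targets of β-catenin. Each treatment had 4 libraries of total RNA, all from the 1 cell line and the 1 time point. The labels give DMEM with foetal bovine serum as the medium. By the methods, the RNA came from a portion of the cells of a protein turnover experiment. The medium of both groups was exchanged when the drug or DMSO was added. The methods describe the new medium as DMEM with heavy-isotope arginine and lysine and dialysed serum. In 2 of the 4 replicates of that experiment the isotope labels were swapped. The labels used here do not say which RNA libraries came from those cells. The question was whether the RNA of targets, or of the components that control them, differed with the drug.

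The library totals were between 35268940 and 37473413 counts with DMSO and between 28218471 and 33659982 counts with lenalidomide, so that each lenalidomide library was smaller than each DMSO library. The cells carried epithelial markers. EPCAM, CDH1, KRT8, KRT18 and KRT19 were all above 10 CPM (read counts scaled by library size) and the 9 epithelial markers summed to between 2222 and 2597 CPM in the 8 libraries, although VIL1 and LGALS4 were at or near 0. The 4 blood markers summed to between 0 and 0.0803 CPM in the DMSO libraries and between 0.122 and 0.416 CPM in the lenalidomide libraries, which did not overlap. PTPRC, the pan-leukocyte marker, was the highest of the 4 in each lenalidomide library, at 0.0912 to 0.208 CPM, and the part of these reads in other results was not tested. All 4 blood markers had too few counts to be tested, and the share of such genes that do not overlap was not determined. The 4 fibroblast markers summed to at most 3.96 CPM and the 3 endothelial markers to at most 0.693 CPM. The series describes the replicates as biological, whereas the methods call the parallel protein measurements technical replicates, so that p-values cover the spread between these libraries, which may be technical.

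The site at which CSNK1A1 acts lies in exon 3 of CTNNB1, the gene of β-catenin, and is shown because it is where the drug's target meets this pathway. The line gives the reference sequence of codons 31 to 47 (GRCh37 chr3:41266094-41266144, plus strand), with the priming codon, codon 45, in capitals. The codons 33, 37 and 41, which GSK3 phosphorylates next, lie before it in lower case.
CTNNB1 codons: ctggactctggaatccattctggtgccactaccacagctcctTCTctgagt

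Counts per gene do not show which allele of CTNNB1 the reads came from.

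RNA levels were first ordered in the DMSO libraries, as CPM per kilobase of gene model (CPM/kb), which allows one gene to be set against another. The most abundant member was CCND1, the cell cycle regulator cyclin D1, at 212.7 ± 17.3 CPM/kb (SD, n = 4). MYC, a growth transcription factor, followed with 143 ± 14.1 CPM/kb and CTNNB1 with 96.7 ± 3.94 CPM/kb (SD, n = 4 each). The 4 DMSO values of these 3 genes did not overlap. DKK1, a secreted inhibitor of LRP5 and LRP6, was next at 60.8 ± 4.40 CPM/kb. CD44, a surface glycoprotein, and SOX4, a transcription factor, followed at 52.2 ± 1.92 and 50.1 ± 2.03 CPM/kb (SD, n = 4), and their values overlapped.

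**Figure D1:**
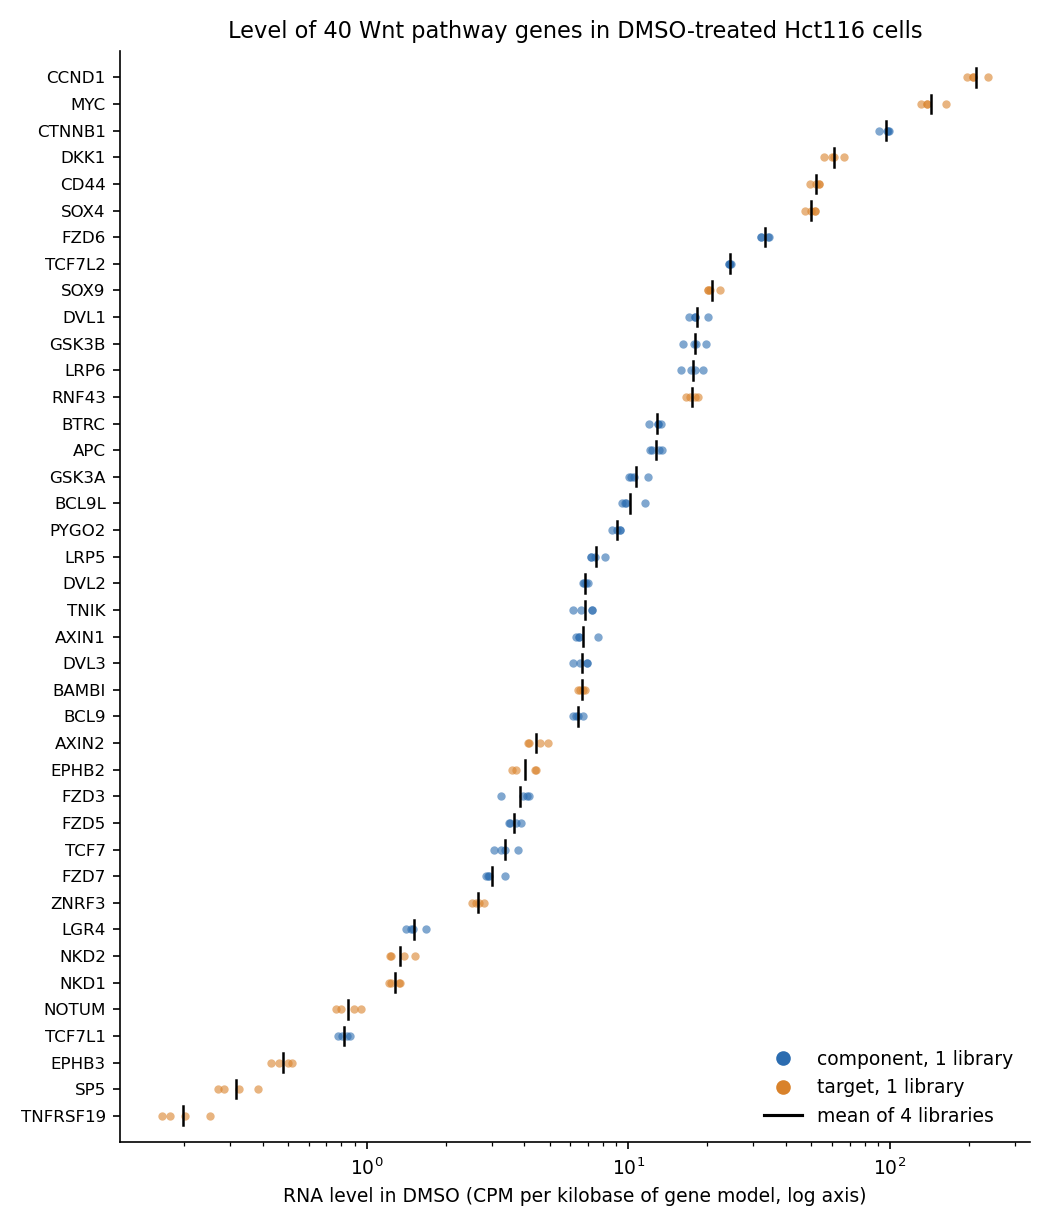
RNA level of the 40 tested members in the 4 DMSO libraries, in CPM per kilobase on a log axis. Each point is 1 library, blue for components and orange for targets, and the black bar is the mean. CCND1 was highest at a mean of 212.7 CPM/kb, and TNFRSF19 lowest of the 40 at 0.199 CPM/kb.

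The targets were spread more widely in level than the components. Over the 20 targets the mean DMSO level had a median of 3.35 CPM/kb, and 7 targets were under 1 CPM/kb while 7 were over 10 CPM/kb. Over the 24 components the median was 7.17 CPM/kb, with 2 under 1 CPM/kb and 10 over 10 CPM/kb. The median of all 13925 genes tested was 6.35 CPM/kb. Among the Frizzled receptors, FZD6 was at 33.3 ± 1.28 CPM/kb and FZD3, FZD5 and FZD7 were between 3.02 and 3.86 CPM/kb. Among the TCF/LEF factors, TCF7L2 stood at 24.4 ± 0.249 CPM/kb, TCF7 at 3.37 ± 0.303 CPM/kb and TCF7L1 at 0.821 ± 0.0365 CPM/kb (SD, n = 4 each). TCF7L2 was thus the TCF/LEF factor with the most RNA in these cells.

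A group of 4 members had almost no reads and did not pass the filter on low counts. ASCL2, a transcription factor of intestinal stem cells, had 0 counts in all 8 libraries, which allows a level of up to 0.0110 CPM (3 counts over the 8 libraries, counting error only). APCDD1, a membrane inhibitor of Wnt, had 2 counts with DMSO and 1 with lenalidomide. LEF1, the last of the TCF/LEF factors, had 4 counts with DMSO and 5 with lenalidomide. LGR5, a receptor for R-spondins that marks crypt stem cells, had 0, 1, 2 and 0 counts in DMSO replicates 1 to 4 and 3, 0, 4 and 5 counts in lenalidomide replicates 1 to 4. The groups overlapped at 0 counts. The ratio of the summed LGR5 counts, 12 against 3, was 4.64 after scaling, with a 95% interval from 1.25 to 25.6 that covers counting error only. Over the 8 libraries the exact permutation test gave p = 0.143, and with the filter on low counts dropped edgeR gave p = 0.0652 before adjustment and 0.930 after it, so that LGR5 did not pass either test. LGR4, which binds the same ligands, was at 1.51 ± 0.115 CPM/kb in DMSO (SD, n = 4).

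With lenalidomide, 0 of the 40 members tested passed the threshold of 0.05 on the p adjusted over all genes (quasi-likelihood test in edgeR, Benjamini-Hochberg), where 0.0144% of all genes tested were called. In bulk RNA, fewer cells of a kind and less RNA per cell cannot be told apart. DESeq2 and edgeR's likelihood ratio test also called 0 members. The lowest adjusted p of the 40 was 0.999. An unadjusted p under 0.05 was found for 4 of the 40 members (10%), against 4.18% of all genes tested. These 4 were all targets, 23.5% of the 17 targets tested. Among them 2 were higher (AXIN2 and RNF43) and 2 lower (DKK1 and EPHB2), where 3.26% of all genes were higher and 0.919% lower at that level. The shares describe chosen lists, and genes are not replicates. Not one member had 4 lenalidomide values clear of its 4 DMSO values, while 2.08% of all genes did, 1.24% of all genes being higher in this way and 0.84% lower.

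**Figure D2:**
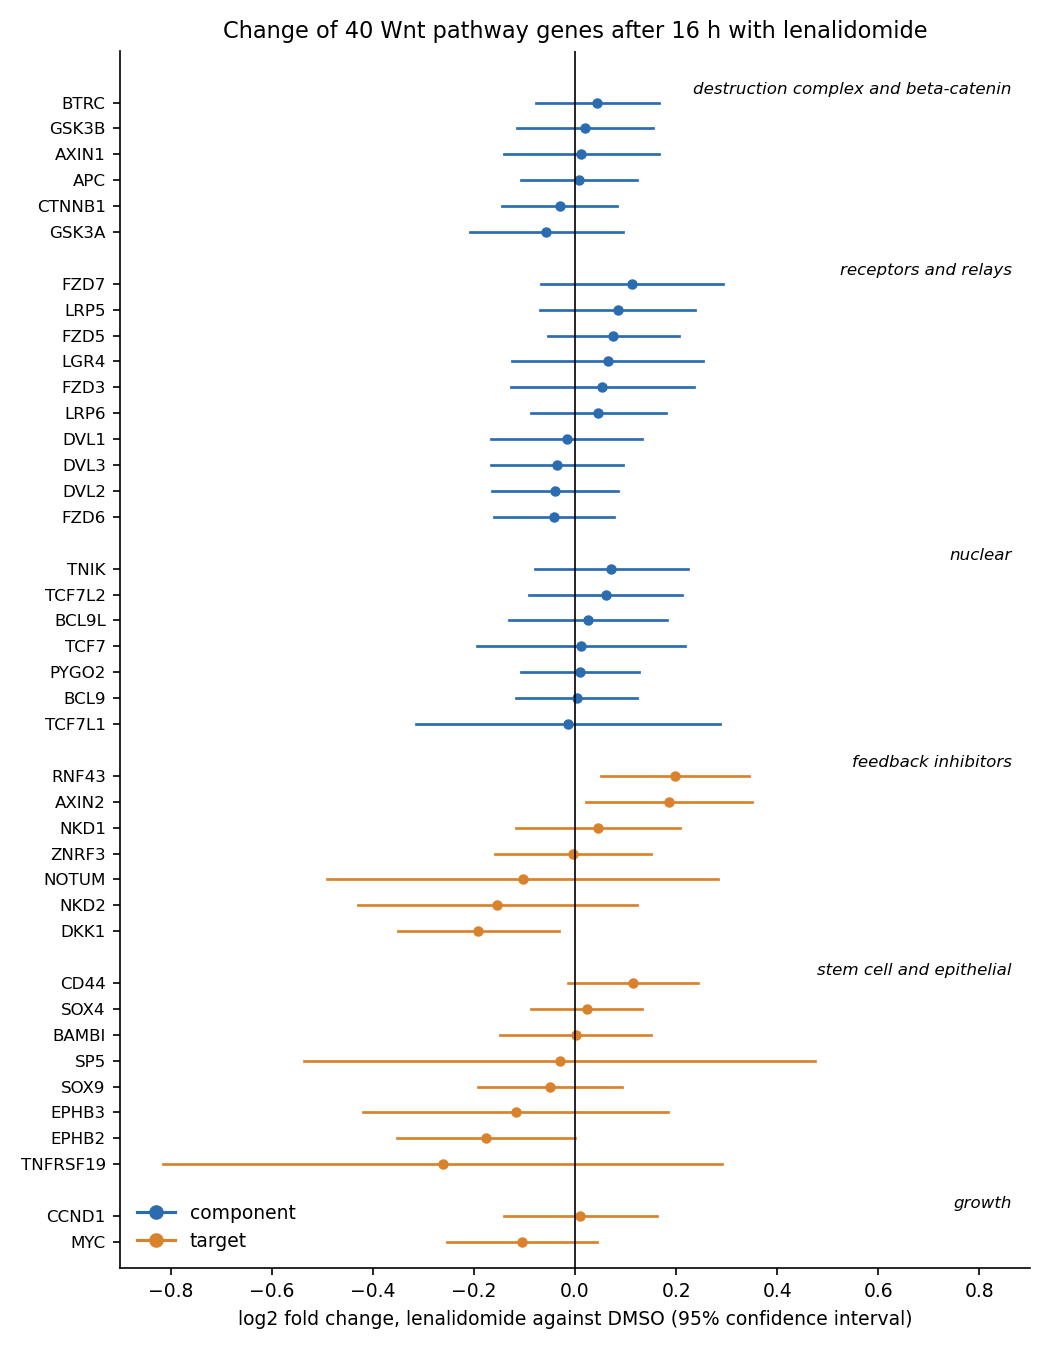
Log2 fold change of the 40 tested members, lenalidomide against DMSO, with its 95% confidence interval (points and bars, blue for components and orange for targets), grouped by role. The intervals of 36 members include 0. Those of RNF43, AXIN2, DKK1 and EPHB2 do not, with log2 fold changes of 0.20, 0.19, -0.19 and -0.18, none past the threshold after adjustment over all genes.

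No difference was detected for the destruction complex or for β-catenin itself. CTNNB1 had 483.5, 479.2, 441.6 and 475.0 CPM in DMSO replicates 1 to 4 and 447.0, 470.6, 469.5 and 453.0 CPM with lenalidomide. The groups overlapped, and the log2 fold change was -0.030 (standard error 0.053, 95% confidence interval -0.14 to 0.084). APC, the scaffold whose loss starts most colorectal tumours, had 153.4, 138.0, 139.7 and 149.5 CPM with DMSO and 144.5, 141.0, 145.5 and 153.0 CPM with lenalidomide, a log2 fold change of 0.0080 (95% confidence interval -0.11 to 0.12). The kinase GSK3B had 129.2, 115.1, 141.3 and 126.3 CPM with DMSO and 131.6, 123.9, 127.8 and 135.5 CPM with lenalidomide. BTRC, which recognises phosphorylated β-catenin, had 82.3, 74.0, 80.2 and 79.6 CPM with DMSO and 76.9, 79.9, 80.9 and 88.1 CPM with lenalidomide. Both overlapped between treatments, with log2 fold changes of 0.019 and 0.044. Of the 6 genes of this role, 4 had a log2 fold change above 0 and 2 below, all under 0.1 in size, and each 95% interval lay within 0.21 of 0. The RNA of CSNK1A1 was at 133 ± 2.68 CPM/kb in DMSO (SD, n = 4), with a log2 fold change of 0.0036 (95% confidence interval -0.11 to 0.12).

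Among receptors and relays, 9 of 10 log2 fold changes were under 0.1 in size. FZD6 had 138.8, 140.4, 130.8 and 130.6 CPM with DMSO and 129.7, 137.7, 136.1 and 121.6 CPM with lenalidomide (log2 fold change -0.042, standard error 0.055). LRP6, the co-receptor, had 181.5, 160.9, 194.5 and 175.3 CPM with DMSO and 180.7, 174.4, 188.5 and 191.7 CPM with lenalidomide (log2 fold change 0.046, standard error 0.062). DVL1, a Dishevelled relay, had 52.6, 55.3, 62.0 and 55.2 CPM with DMSO and 59.8, 58.5, 49.5 and 54.6 CPM with lenalidomide (log2 fold change -0.017, standard error 0.069). All 3 genes overlapped between treatments. The largest log2 fold change among the 10 genes of this role was 0.11 for FZD7 (standard error 0.084). The Dishevelled genes DVL1, DVL2 and DVL3 were between -0.040 and -0.017, and LRP5, LRP6, FZD3, FZD5 and LGR4 between 0.046 and 0.085, with each 95% interval spanning 0.

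Of the nuclear factors, 7 were tested and their log2 fold changes ran from -0.015 to 0.072. TCF7L2 had 124.7, 121.8, 123.3 and 122.5 CPM with DMSO and 135.1, 117.3, 115.0 and 146.2 CPM with lenalidomide. The DMSO values were close together and the lenalidomide values lay on both sides of them, with an SD of 1.26 CPM against 14.8 CPM (n = 4 each). The log2 fold change of TCF7L2 was 0.061 with a standard error of 0.071, and -0.085 without lenalidomide replicates 1 and 4, the libraries with the fewest counts. Those libraries held the highest TCF7L2 values, so that leaving them out had to lower the estimate. BCL9L, an adaptor that joins β-catenin to Pygopus proteins, had 73.2, 75.6, 89.6 and 75.3 CPM with DMSO and 81.9, 73.1, 77.1 and 87.4 CPM with lenalidomide. PYGO2, a Pygopus protein, had 27.6, 28.8, 29.6 and 29.4 CPM with DMSO and 28.7, 28.9, 28.2 and 30.2 CPM with lenalidomide. The log2 fold changes were 0.026 and 0.0092, with overlapping groups. TNIK, a kinase that acts on TCF7L2, had the highest value of this role, 0.072 (standard error 0.071).

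The feedback inhibitors held 3 of the 4 members with an unadjusted p under 0.05, and these lay in both directions. AXIN2, a relative of AXIN1 that β-catenin induces in most tissues, had 24.3, 22.7, 20.4 and 20.5 CPM with DMSO and 25.2, 22.7, 24.6 and 27.5 CPM with lenalidomide. Lenalidomide replicates 1, 3 and 4 were above every DMSO value and replicate 2 was not. This gave a log2 fold change of 0.19, with a standard error of 0.076 and a 95% confidence interval of 0.022 to 0.35. The quasi-likelihood p of edgeR was 0.0294 before adjustment and 0.999 after it, and the unadjusted value was above 0.05 without DMSO replicate 3 or 4 or lenalidomide replicate 1 or 4 (0.0564 to 0.0994).

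RNF43, a membrane ubiquitin ligase that removes Frizzled receptors from the cell surface, had 104.8, 109.5, 100.9 and 112.8 CPM with DMSO and 129.5, 111.1, 114.3 and 136.0 CPM with lenalidomide. Again lenalidomide replicates 1, 3 and 4 were above every DMSO value and replicate 2 overlapped. This gave a log2 fold change of 0.20, with a standard error of 0.068 and a 95% confidence interval of 0.051 to 0.34. The p of edgeR was 0.0121 before adjustment and 0.999 after it, and stayed under 0.05 before adjustment whichever single library was left out (0.00295 to 0.0440). The 2 highest RNF43 values came from the 2 lenalidomide libraries with the fewest counts, replicates 1 and 4. The same 2 libraries held the 2 highest AXIN2 values, so that leaving both out had to lower both estimates. Without them the log2 fold change was 0.072 for RNF43 (standard error 0.065) and 0.10 for AXIN2 (standard error 0.088). With all libraries thinned to the smallest total the values were 0.20 for RNF43 and 0.22 for AXIN2. Such thinning keeps the expected share of each gene, so that the part of depth was not tested. ZNRF3, the relative of RNF43 with the same role, was at -0.0032 on the same scale (standard error 0.072).

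DKK1 had 109.8, 120.1, 108.7 and 100.7 CPM with DMSO and 99.5, 102.7, 100.3 and 82.0 CPM with lenalidomide. Lenalidomide replicate 4 was the lowest, and replicate 2 overlapped the DMSO values. This gave a log2 fold change of -0.19, with a standard error of 0.074 and a 95% confidence interval of -0.35 to -0.033. The p of edgeR was 0.0216 before adjustment and 0.999 after it. Without lenalidomide replicate 4 the log2 fold change was -0.12 and the unadjusted p 0.0679, and without DMSO replicate 2 they were -0.15 and 0.0799. For AXIN2, RNF43 and DKK1 alike, the two-sided exact permutation test over the 8 libraries gave p = 0.0571, where 0.0286 is the smallest p that 4 against 4 allows. The other feedback inhibitors tested, NKD1, NKD2 and NOTUM, had log2 fold changes of 0.045, -0.15 and -0.10 with standard errors between 0.076 and 0.18.

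**Figure D3:**
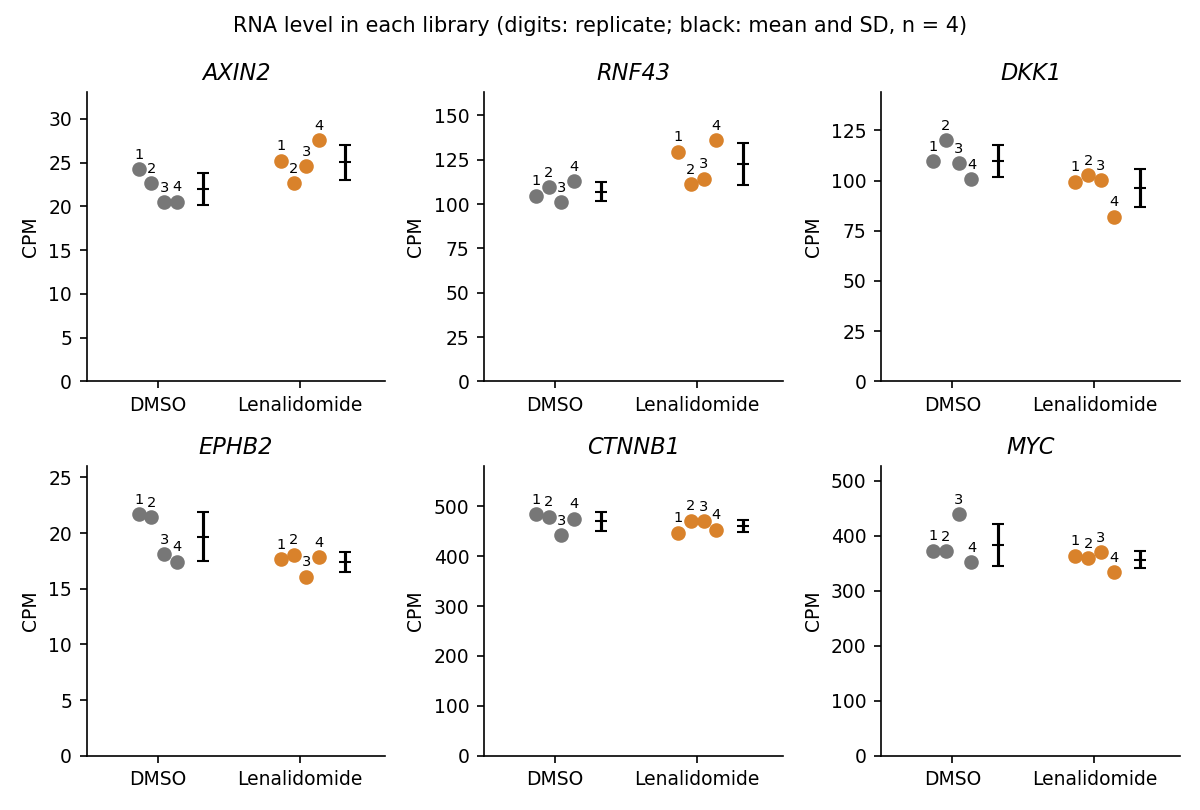
RNA level in CPM of 6 members in each library, from 0, with the replicate number above each point (grey for DMSO, orange for lenalidomide) and the mean and SD (n = 4) in black. AXIN2 and RNF43 in lenalidomide replicates 1, 3 and 4 lie above every DMSO value, DKK1 in the same replicates lies below every DMSO value, and CTNNB1 and MYC overlap.

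EPHB2, a receptor tyrosine kinase that positions cells along the crypt, was the other member with an unadjusted p under 0.05. EPHB2 had 21.7, 21.4, 18.1 and 17.4 CPM with DMSO and 17.6, 18.1, 16.1 and 17.8 CPM with lenalidomide. The DMSO values fell into a higher and a lower pair, and 3 of the 4 lenalidomide values lay within the lower pair's range of 17.4 to 18.1 CPM. The log2 fold change was -0.18 (standard error 0.082, 95% confidence interval -0.35 to -0.00053), with an exact permutation p of 0.171. Its p in edgeR was 0.0494 before adjustment and 0.999 after it. The unadjusted p was above 0.05 without DMSO replicate 1 or 2 or lenalidomide replicate 1, 3 or 4 (0.0572 to 0.156), and the log2 fold change was -0.13 without DMSO replicate 1. EPHB3, which has the same role, was low, with a mean of 2.01 ± 0.165 CPM in the DMSO libraries and 1.86 ± 0.200 CPM in those with lenalidomide (SD, n = 4 each).

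The most abundant targets did not pass the test either. CD44 had 348.7, 330.7, 358.3 and 357.5 CPM with DMSO and 346.6, 366.2, 393.0 and 404.9 CPM with lenalidomide. Lenalidomide replicates 2, 3 and 4 were above every DMSO value and replicate 1 was not, and the 95% interval of its log2 fold change of 0.11 ran from -0.015 to 0.24. SOX4 had 251.5, 231.0, 242.6 and 252.2 CPM with DMSO and 252.6, 238.6, 251.9 and 249.9 CPM with lenalidomide. SOX9, a transcription factor of the crypt base, had 88.1, 80.7, 79.0 and 79.6 CPM with DMSO and 78.2, 71.4, 78.2 and 88.8 CPM with lenalidomide. Both overlapped, with log2 fold changes of 0.023 and -0.049.

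MYC had 373.1, 371.6, 438.8 and 351.7 CPM with DMSO and 364.0, 359.0, 370.3 and 333.7 CPM with lenalidomide. DMSO replicate 3 was the highest value, and the log2 fold change of -0.11 (standard error 0.069) was -0.038 without it. CCND1 had 892.4, 847.9, 1020 and 889.2 CPM with DMSO and 912.0, 912.4, 997.7 and 853.7 CPM with lenalidomide, a log2 fold change of 0.011 (95% confidence interval -0.14 to 0.16). For both growth genes the difference of the means was smaller than the SD of the DMSO replicates. The targets BAMBI, SP5 and TNFRSF19 had log2 fold changes of 0.00092, -0.031 and -0.26. The standard errors of SP5 and TNFRSF19, 0.24 and 0.26, were the largest of all members tested.

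Small log2 fold changes were more frequent among the components than among the targets. The median log2 fold change was -0.031 over the 17 targets tested, 0.012 over the 23 components tested and 0.0025 over all genes tested. Of the targets, 7 were above 0 and 10 below, and of the components 16 were above and 7 below. A log2 fold change under 0.1 in size was found for 22 of 23 components (95.7%), 7 of 17 targets (41.2%) and 71.9% of all genes tested. Among members with a mean of at least 10 CPM it was 20 of 21 components (95.2%) and 6 of 12 targets, against 85.4% of all genes at that level. The median standard errors, 0.069 for components and 0.074 for targets, were close. These shares are descriptions of chosen lists, and genes are not replicates.

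**Figure D4:**
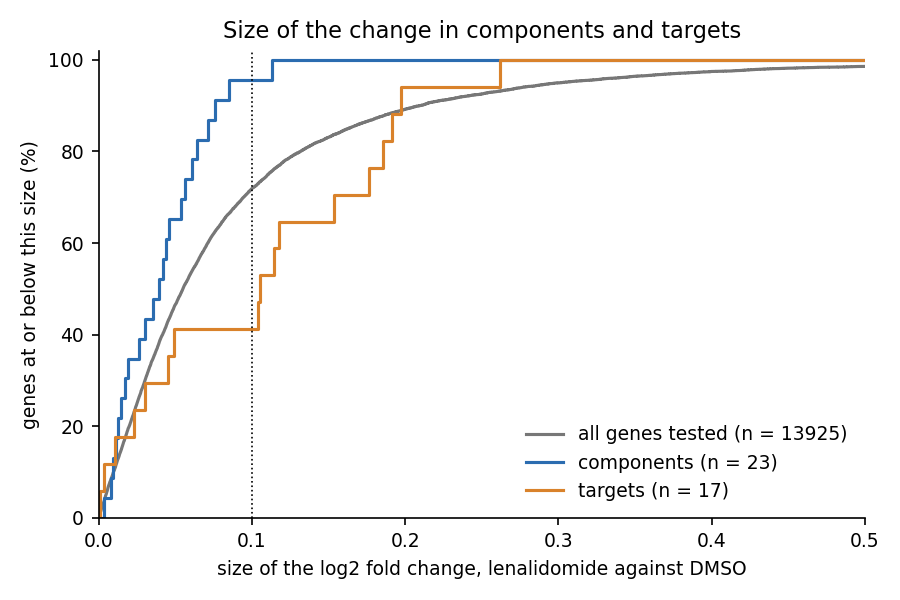
Share of genes whose log2 fold change, lenalidomide against DMSO, is at or below a given size in either direction, for all genes tested (grey), 23 components (blue) and 17 targets (orange). At a size of 0.1 (dotted line) the components stand at 95.7%, all genes at 71.9% and the targets at 41.2%.

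The medians of both groups also differed between libraries of the same treatment. Relative to the DMSO mean of each gene, the log2 median of the targets lay between -0.034 and 0.0022 in the DMSO libraries and between -0.091 and 0.033 in the lenalidomide libraries. The median of the components lay between -0.048 and 0.034 and between -0.026 and 0.086. The difference of targets minus components averaged -0.012 ± 0.031 with DMSO and -0.050 ± 0.013 with lenalidomide (SD, n = 4 each). It was between -0.046 and 0.029 in the DMSO libraries and between -0.065 and -0.034 in the lenalidomide libraries, so that the groups overlapped. Lenalidomide replicate 4, the library with the fewest counts, had the highest median of both groups. With all libraries thinned to its total, the median log2 fold change was -0.0044 for targets and 0.017 for components, a difference of -0.022 in place of -0.043. Before thinning, the median of the targets was the value of SP5, a gene with 14 to 28 counts per library. The thinning was drawn at random without repeats. It keeps the expected share of each gene in a library, so that it adds sampling noise and cannot show an effect of depth. The part of depth in this shift was not tested.

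**Figure D5:**
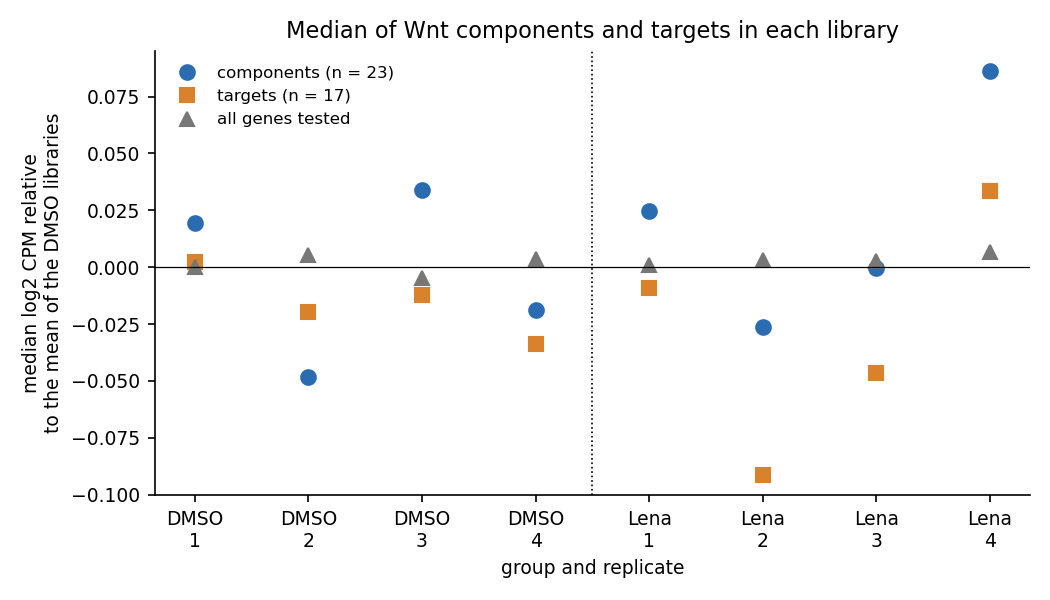
Median log2 CPM of components (blue circles), targets (orange squares) and all genes tested (grey triangles) in each library, relative to the mean of the DMSO libraries. The targets reach from -0.091 to 0.033 in the lenalidomide libraries, and the all-gene median stays within 0.0065 of 0.

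The rest of the pathway was read from a list of 68 further components and 17 further targets, chosen by role. Of the components 43 were tested and 0 were called in either direction. Of the targets 10 were tested, again with 0 called. DESeq2 also called 0 genes of both lists on the adjusted p. At an unadjusted p under 0.05 both lists had 0 genes by edgeR's quasi-likelihood test. Their median log2 fold changes were 0.014 and -0.041. No gene tested in either list had 4 lenalidomide values clear of its 4 DMSO values. Among the genes with too few counts to be tested, WNT5B, WNT8B and PROX1 had all 4 lenalidomide values above all 4 DMSO values in CPM. They were 2 of 25 components and 1 of 7 targets, and are named after their values were seen. The share over all untested genes was not determined. WNT5B lay between 0.0827 and 0.187 CPM with DMSO and between 0.241 and 0.554 CPM with lenalidomide. PROX1 lay between 0.0528 and 0.0584 and between 0.0603 and 0.381 CPM, and WNT8B between 0 and 0.0292 and between 0.0301 and 0.0973 CPM. For WNT8B and PROX1 the highest DMSO and lowest lenalidomide values came from equal read counts, set apart only by the scaling to library size. Most of the 19 WNT ligand genes were low, with 15 under 1 CPM in DMSO and 1 over 10 CPM, and 10 of them passed the filter. That gene was WNT16, named here after its value was seen, at 34.95 ± 1.97 CPM/kb in DMSO (SD, n = 4), a level between those of SOX4 and FZD6. Its log2 fold change was -0.0036 (standard error 0.054).

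A search for the TCF/LEF motif was made in the promoters of the members, from 250 bases before to 50 bases after the start site (RefSeq, GRCh38.p14). Of the 44 members, 37 matched an entry. The letters CTTTGAT or CTTTGAA, on either strand, were found in 2 of the 37 (5.41%), against 6.86% of all 35116 promoters. Both spellings occurred in 65 promoters. The members were SP5, a transcription factor that β-catenin induces, with 3 matches, and DKK1 with 1. The matched stretches are printed with the motif letters in capitals, since these are the members whose promoter window holds the motif, for SP5 at chr2:170715144-170715304 and for DKK1 at chr10:52314141-52314237, both on the plus strand.
SP5 promoter: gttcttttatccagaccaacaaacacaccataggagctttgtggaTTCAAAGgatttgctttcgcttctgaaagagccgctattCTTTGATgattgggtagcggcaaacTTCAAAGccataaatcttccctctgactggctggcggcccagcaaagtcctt
DKK1 promoter: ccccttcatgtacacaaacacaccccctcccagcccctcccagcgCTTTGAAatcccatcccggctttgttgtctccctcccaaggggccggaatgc

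SP5 had 0.749, 0.552, 0.526 and 0.633 CPM with DMSO and 0.454, 0.724, 0.608 and 0.624 CPM with lenalidomide, a low level with overlapping groups. The values of DKK1 are given above, and the match in its window is a description and not a measured site.

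The genes described in full lie on GRCh37 as follows. CTNNB1 is on chromosome 3 from 41236232 to 41301587 on the plus strand, with no overlapping exon of another gene. AXIN2 is on chromosome 17 from 63524681 to 63557766 and RNF43 on chromosome 17 from 56431037 to 56494956, both on the minus strand. DKK1 is on chromosome 10 from 54074041 to 54077802 and EPHB2 on chromosome 1 from 23037332 to 23247993, both on the plus strand. Exons of 24 of the 44 members overlap those of another annotated gene, 6 on the same strand and 21 on the opposite strand, with 3 in both counts. AXIN2 and RNF43 each overlap an unnamed gene on their own strand. RNF43 also overlaps the antisense gene TSPOAP1-AS1, DKK1 overlaps PRKG1-AS1 and EPHB2 overlaps the microRNA gene MIR4253. The strand setting of the counting is not given in the sources used here beyond default parameters, so that reads of these genes and of their antisense partners cannot be told apart.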

How the data were processed

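Total RNA from 8 Hct116 samples, 4 per treatment, was made into ScriptSeq v2 libraries. The authors aligned the reads to hg19 (GRCh37) with QuasR, with spliced alignment, and counted them per UCSC known gene. The deposited values are raw read counts, not normalized. The submitters' processing notes name bcl2fastq 2.17. The deposited table also gives the exonic width of each gene. Of 23459 genes, 70 had no symbol, with 0.0223% of the counts, and were kept under their gene identifiers. The methods describe separate counts of exonic and intronic reads.

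The analysis used R 4.3.3, edgeR 4.0.16 and, as an alternative, DESeq2 1.42.0. filterByExpr (minimum count 10, minimum total 15) kept 13925 genes. Lenalidomide was compared with DMSO on TMM-scaled counts by the quasi-likelihood test, with Benjamini-Hochberg adjustment over all genes and a threshold of 0.05. CPM used library totals times TMM factors (0.971 to 1.02). Log2 medians per library used a prior count of 2. The spread beyond counting error had a median coefficient of variation of 7.41%. Pairs of libraries within a treatment differed by more than sampling noise (chi-square per degree of freedom 5.59 to 24.3), so that none was a copy. Members given in every library are CTNNB1, APC, AXIN2, LGR5, MYC, CCND1, TCF7L2, those called, those with an unadjusted p under 0.05, those whose groups do not overlap, and the 3 with the highest DMSO level of each role. The members and lists were chosen with earlier results of these data known. Positions come from GENCODE v44 on GRCh37. Alternatives are listed in the closing section.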

Additional observations from a re-analysis of the deposited data

Results flagged for a closer look

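The 40 members tested give 80 groups of 4 values, one group for each treatment. In 5 of them a single library stood apart from the remaining 3, and about 4 would do so by chance. DMSO replicate 3 stood apart for AXIN1, with 27.98 CPM where the remaining DMSO libraries had 22.99 to 23.7 CPM, and for BCL9L, with 89.6 CPM where they had 73.2 to 75.6 CPM. For FZD7 it was DMSO replicate 1, with 13.03 CPM where the rest had 10.95 to 11.3 CPM. Among the lenalidomide libraries, replicate 1 had 38.7 CPM of DVL3, the rest 34.6 to 35.1 CPM. Replicate 4 had 82.0 CPM of DKK1, the rest 99.5 to 102.7 CPM.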

How the results depend on the processing

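Each result was recomputed with RLE scaling, with DESeq2, with a likelihood ratio test, with the filter on low counts dropped (1 count kept) or raised (10 counts in each library), with a looser threshold (adjusted p of 0.1), with replicate numbers as a replicate block, and without each library in turn. Thinning to the smallest library and leaving out lenalidomide replicates 1 and 4 together were added after the data were seen. In each of them 0 members and 0 of the other pathway genes were called. Among all genes 2 were called, against 9 with DESeq2, 12 with the likelihood ratio test, 4 with the filter dropped, 6 with the replicate block, and 1 to 2 when each library was left out.

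The count of members with an unadjusted p under 0.05, 4 in all, was 2 without lenalidomide replicates 1 and 4 together, and RNF43 and AXIN2 were not among these 2. The highest values of RNF43 and AXIN2 came from the libraries left out. The count was from 1 (without lenalidomide replicate 4) to 4 when each library was left out, with 2 without DMSO replicate 2. The members counted were not the same in each fit. NOTUM, TNFRSF19 and CD44 each had an unadjusted p under 0.05 in 1 of the 16 alternatives. The difference of the medians, targets minus components, was -0.043, with extremes of -0.086 (DMSO replicate 3 left out) and -0.015 (lenalidomide replicate 1 left out). Over the same 8 fits the median of the targets ran from -0.056 to 0.0032 and that of the components from -0.0072 to 0.047. Counting TCF7 and LEF1 as targets, AXIN2 as a component, or leaving out MYC and CCND1 kept the 3 medians within 1 SD of the libraries. The order of DMSO levels was the same in TPM. The cause of these shifts was not tested.

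AXIN2, RNF43, DKK1 and EPHB2 kept their sign in all 16 alternative fits, with log2 fold changes from 0.10 to 0.23, 0.072 to 0.24, -0.23 to -0.12 and -0.23 to -0.13. Their lowest adjusted p over these was 0.279, for DKK1 with the replicate block. These genes were picked by their unadjusted p in the same libraries, so that a kept sign is no separate support. Deviations of same-numbered libraries correlated at 0.028, -0.024, 0.031 and 0.27 for replicates 1 to 4. Only for replicate 4 was the same-numbered library the best match, so that whether the numbers pair the libraries was not settled. The block changed no call of a member, while over all genes it gave 6 calls in place of 2.

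Of the 40 members, 21 kept their sign in all 16 and 19 did not, all 19 without passing the test. With the filter dropped APC was at -0.00087 and CSNK1A1 at -0.0047, and CSNK1A1 gave -0.00032 under RLE scaling and -0.00027 under DESeq2. PYGO2 was at -0.0067 after thinning. Without lenalidomide replicates 1 and 4, APC was at -0.022, TCF7L2 at -0.085, GSK3B at -0.027, FZD6 at 0.016, BCL9L at -0.065 and PYGO2 at -0.015. With each library left out, log2 fold changes ran from -0.016 to 0.032 for APC, -0.0069 to 0.11 for TCF7L2, -0.029 to 0.066 for GSK3B, -0.054 to 0.035 for DVL1, -0.019 to 0.093 for BCL9L, -0.016 to 0.022 for PYGO2, -0.0033 to 0.041 for SOX4, -0.032 to 0.065 for CCND1 and -0.015 to 0.025 for CSNK1A1. TNFRSF19 and SP5, the members with the lowest DMSO levels of those tested, had the largest standard errors, 0.26 and 0.24. The part of depth in this was not tested. Of the 4 members that did not pass the filter, LGR5, LEF1 and APCDD1 were at 2.03, 0.49 and -0.59 with the filter dropped, with unadjusted p of 0.0652, 0.681 and 0.706 in edgeR, and ASCL2 had no counts to test.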
